A study of Homo sapiens with 5 samples.

Results

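The subject of this report is the chromatin around the genes of 4 transcription factors of prostate luminal cells, FOXA1, GATA2, GRHL2 and HOXB13, in the Vcap prostate cancer cell line. Members were chosen by position: every listed interval of histone H3 acetylated at lysine 27 (H3K27ac) or monomethylated at lysine 4 (H3K4me1) that overlapped a gene's span or the 100 kb on either side of it. This rule took 359 intervals of the 364358 in all lists. They were 52 and 78 of the 54996 and 65106 intervals of H3K27ac libraries 1 and 2, and 121 and 108 of the 118551 and 125705 intervals of H3K4me1 libraries 1 and 2.

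Chromatin immunoprecipitation followed by sequencing was done on formaldehyde-fixed Vcap cells with one antibody against each mark, 2 libraries per mark, beside 1 input library. Vcap is an established, androgen receptor-positive line, and the labels name a culture medium with serum and no treatment, so the libraries differ by antibody and replicate number. The lists give positions on hg19 without peak heights or read counts, so the sequencing depth is unknown, and the input was not analysed here. Nothing in the labels says that the 2 libraries of a mark came from separate cultures, so SDs and p-values measure only the spread between these libraries, which may be technical.

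On hg19, the FOXA1 span is chr14:38058757-38064325 and the GATA2 span is chr3:128198265-128212030. The GRHL2 span is chr8:102504668-102681952 and the HOXB13 span is chr17:46802127-46806111. GRHL2 is read on the plus strand and the other genes on the minus strand, and the gene start is taken here as the 5′ end of the span. With no gene annotation of that build, positions are given as distances from the gene start. Exons, introns, UTRs and the starts of neighbouring genes were not assigned.

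As background, H3K27ac marks active promoters and active enhancers, and H3K4me1 marks enhancers more broadly, including those without acetylation. FOXA1 is a forkhead pioneer factor that opens chromatin for the androgen receptor, GATA2 is a zinc-finger factor that works with it at enhancers, GRHL2 is a Grainyhead-family factor that maintains epithelial identity, and HOXB13 is a homeobox factor that marks the prostate lineage. All of them bind with the androgen receptor at many prostate enhancers. Peak lists do not measure expression, so the luminal label was not checked with RNA, and what could be examined was whether the genes carried the marks.

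The RefSeq promoter table (GRCh38.p14) held entries for 2 of the 4 genes, FOXA1 and GATA2, and their promoters are shown because the H3K27ac interval over each gene start is a main result below. Each sequence is the 250 bases before a RefSeq start, 5′ to 3′ on the gene's own strand, which is the minus strand of chromosome 14 for FOXA1 and of chromosome 3 for GATA2. Capitals mark motif matches, namely GGGCGG (or its complement CCGCCC) and CCAAT (or its complement ATTGG).
FOXA1: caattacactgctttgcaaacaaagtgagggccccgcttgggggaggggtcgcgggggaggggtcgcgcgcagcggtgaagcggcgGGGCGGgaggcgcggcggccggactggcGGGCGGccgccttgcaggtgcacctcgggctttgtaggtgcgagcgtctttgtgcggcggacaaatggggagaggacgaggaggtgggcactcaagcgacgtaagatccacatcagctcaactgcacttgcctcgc
GATA2 start 1: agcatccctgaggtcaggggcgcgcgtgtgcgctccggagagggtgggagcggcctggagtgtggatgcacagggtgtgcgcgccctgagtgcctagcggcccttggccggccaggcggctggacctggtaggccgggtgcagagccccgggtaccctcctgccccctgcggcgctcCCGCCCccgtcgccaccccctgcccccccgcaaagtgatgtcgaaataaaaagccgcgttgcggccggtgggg
GATA2 start 2: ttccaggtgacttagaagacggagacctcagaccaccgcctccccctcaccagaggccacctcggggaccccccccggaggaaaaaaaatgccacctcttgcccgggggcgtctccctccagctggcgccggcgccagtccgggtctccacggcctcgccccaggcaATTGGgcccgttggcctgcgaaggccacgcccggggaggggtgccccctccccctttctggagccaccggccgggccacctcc

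These promoters were rich in G, C and the CG dinucleotide. The FOXA1 promoter was 67.2% GC with 26 CG dinucleotides, GATA2 start 1 was 72.8% with 24, and GATA2 start 2 was 71.2% with 18. Over 35116 promoters of the same length in the table, the median was 58% GC and 11 CG dinucleotides. GGGCGG, a letter pattern bound by Sp-family factors, occurred at 2 places before the FOXA1 start and at 1 before GATA2 start 1, and 42.6% of all promoters held it. CCAAT occurred at 1 place before GATA2 start 2, and 32.0% of all promoters held it. The other 7 patterns searched on both strands had no match in these windows. They were TATAAA (10.7% of all promoters), CCGGAA (14.5%), AGAACA (12.4%), TGTTTAC (2.98%), AGATAA (9.17%), AACCGGTT (0.117%) and CCAATAAA (0.863%), and the last contains CCAAT. A match is only a run of letters, and the absence of one says nothing about binding by a factor.

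H3K27ac covered 11.6% to 22.6% of each window (the gene span with 100 kb on either side). In these windows HOXB13 had the highest H3K27ac coverage, followed by FOXA1, while GATA2 and GRHL2 were lower and overlapped each other. This order depended on the flank. With 50 kb, the H3K27ac means were 32.0% at FOXA1 and 31.1% at HOXB13, and with 200 kb GATA2 was highest at 14.3%, beside 13.9% at HOXB13 and 13.1% at FOXA1. H3K4me1 gave another order, with GRHL2 highest, HOXB13 next, and GATA2 and FOXA1 lowest and overlapping. GRHL2 also had the highest H3K4me1 mean with 50 kb (17.1%) and 200 kb (13.7%), and the order of the other genes changed.

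For FOXA1, H3K27ac covered 17.8% and 16.0% of the window in libraries 1 and 2, or 36.6 and 32.9 kb, in 6 and 11 intervals. H3K4me1 covered 4.17% and 8.32%, or 8.56 and 17.1 kb, in 16 and 24 intervals. Both H3K27ac libraries were above both H3K4me1 libraries in coverage although they held fewer intervals.

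For GATA2, H3K27ac covered 12.53% and 12.26% of the window in 13 and 15 intervals. H3K4me1 covered 7.78% and 10.3% in 13 and 17 intervals. Coverage again separated the marks with H3K27ac higher, while the numbers of intervals overlapped.

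For GRHL2, whose window is the longest at 377 kb, H3K27ac covered 12.6% and 11.6% in 20 and 33 intervals. H3K4me1 covered 15.6% and 20.4%, or 58.9 and 76.9 kb, in 66 and 52 intervals. Here the order of the marks was the opposite one, with both H3K4me1 libraries above both H3K27ac libraries in coverage and in number.

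For HOXB13, H3K27ac covered 22.6% and 22.2% of the window, or 46.0 and 45.2 kb, in 13 and 19 intervals. H3K4me1 covered 11.9% and 14.1%, or 24.3 and 28.8 kb, in 26 and 15 intervals. The H3K27ac values were nearly equal and both lay above the H3K4me1 values.

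**Figure D1:**
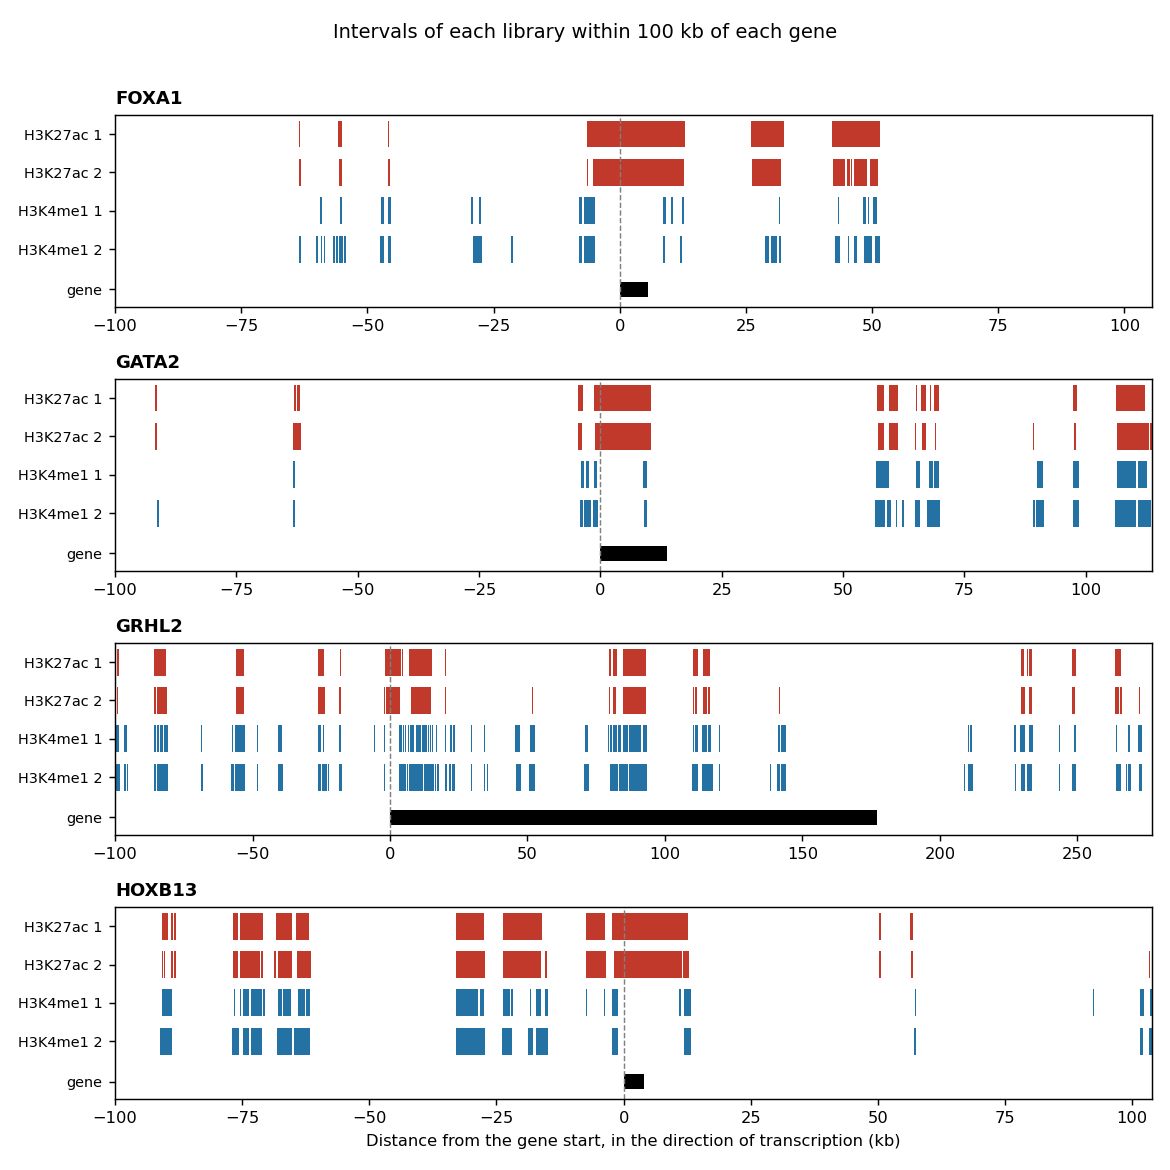
Intervals of each library along the 4 windows, by distance from the gene start in kb with the gene read from left to right. Each row is 1 library (H3K27ac red, H3K4me1 blue), and the H3K27ac intervals over the 4 starts have no H3K4me1 interval at the start itself.

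The levels were read against the rest of the genome by laying windows of the same length end to end along the autosomes and X. The HOXB13 window's mean H3K27ac coverage of 22.4% ± 0.283 (SD, n = 2) was 19.2 times the median of 1.16% over 14435 such windows, and 0.139% of them reached it. For FOXA1, 16.9% ± 1.25 (SD, n = 2) was 14.5 times the median, and 0.482% of windows reached it. For GATA2, 12.4% ± 0.194 (SD, n = 2) was 10.3 times the median, reached by 1.74%, and for GRHL2, 12.1% ± 0.710 (SD, n = 2) was 8.34 times the median, reached by 1.09%. All 4 windows were therefore also above the 90th percentile of genome windows, which lay between 6.16% and 6.58%. These shares describe windows picked for their genes and are not tests.

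As a multiple of the median, H3K4me1 stood less far above its background than H3K27ac at all 4 genes, while at GRHL2 a smaller share of windows reached the H3K4me1 value than the H3K27ac value. The GRHL2 window's mean of 18.0% ± 3.37 (SD, n = 2) was 7.41 times the median of 2.43%, and 0.256% of 7802 windows reached it. HOXB13 had 13.0% ± 1.55 (SD, n = 2), 6.11 times the median, reached by 1.79%. GATA2 had 9.02% ± 1.75 (SD, n = 2), reached by 6.43%, and FOXA1 had 6.24% ± 2.94 (SD, n = 2), reached by 15.5%. The FOXA1 mean was below the 90th percentile of 7.64%, and its library 2 alone was above it.

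**Figure D2:**
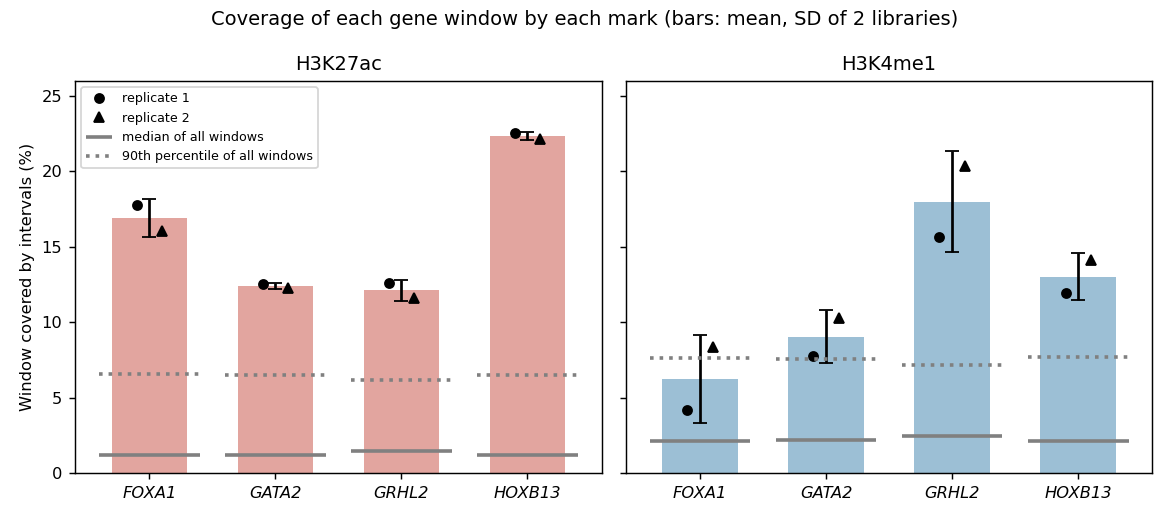
Percent of each gene's window covered by H3K27ac (red) and H3K4me1 (blue), as bars (mean, with SD of 2 libraries) with 1 point per library; solid and dotted grey lines give the median and 90th percentile of same-length windows. H3K27ac lies above H3K4me1 at FOXA1, GATA2 and HOXB13 and below it at GRHL2.

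The difference between the marks was tested for each gene over the 4 libraries. H3K4me1 minus H3K27ac was -10.7 percentage points at FOXA1, with library pairs from -13.6 to -7.70. It was -3.37 at GATA2 (pairs from -4.75 to -2.00) and -9.34 at HOXB13 (pairs from -10.6 to -8.04). At GRHL2 it was 5.89 percentage points (pairs from 3.0004 to 8.7737). The libraries of the marks did not overlap at any of the genes. With a 50 kb flank the differences were -21.6 at FOXA1, -8.32 at GATA2 and -18.7 at HOXB13, and with 200 kb that of HOXB13 was -4.05. Without H3K4me1 library 1 the GATA2 difference was -2.13, and without H3K4me1 library 2 the GRHL2 difference was 3.502. With a two-sided exact permutation test, p was 0.333 for each gene, the smallest value that 2 against 2 libraries allow, and 0.444 after Benjamini-Hochberg adjustment over 8 tests, so none passed 0.05. The number of intervals differed by 11.5 at FOXA1 and 32.5 at GRHL2 (exact permutation p = 0.333 for both), by 4.5 at HOXB13 (exact permutation p = 0.667) and by 1 at GATA2 (exact permutation p = 1). With equal numbers of the widest intervals kept per library, the FOXA1 difference in number was -1.5, those of GATA2 and HOXB13 were 0, and that of GRHL2 was 13.5.

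At the gene starts all 4 genes looked alike. Each start lay inside an H3K27ac interval in 2 of 2 libraries and inside an H3K4me1 interval in 0 of 2. With no gene annotation of that build, the share of other gene starts with this pattern was not computed. Whether it is particular to these genes was therefore not tested. The intervals differed widely in length between genes, and the nearest H3K4me1 on either side of a start mostly lay near the ends of the acetylated interval. Downstream of the FOXA1 start it lay well inside, at 8579 and 8588 bp, in intervals that reached 12.9 and 12.7 kb.

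At FOXA1, the H3K27ac interval over the start was chr14:38051465-38070851 in library 1 (19387 bp) and chr14:38051582-38069646 in library 2 (18065 bp). In library 1 it reached 6.53 kb upstream and 12.9 kb downstream of the start, and it took in the whole gene in both libraries. The nearest H3K4me1 intervals began 4950 and 4801 bp upstream of the start and 8579 and 8588 bp downstream of it. The whole gene and several kb upstream of it thus held no H3K4me1 interval in either library.

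At HOXB13, the start interval was chr17:46793355-46808403 in library 1 (15049 bp) and chr17:46794645-46808003 in library 2 (13359 bp). It also took in the whole gene, and it reached 12.8 and 11.5 kb downstream, well past the gene's 3′ end. H3K4me1 began 1061 and 1084 bp upstream and 10933 and 11822 bp downstream. The upstream gap was shorter than at FOXA1 and the downstream gap longer.

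At GATA2, the start interval was chr3:128201529-128213275 in library 1 (11747 bp) and chr3:128201646-128213170 in library 2 (11525 bp). It reached 10.5 and 10.4 kb into the gene and covered 76.3% and 75.4% of the span. The RefSeq starts of GATA2 lie 4.67 kb apart in GRCh38, less than that reach. H3K4me1 began 600 and 543 bp upstream of the start, the shortest upstream gap of the 4 genes, and 8869 and 8899 bp downstream.

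At GRHL2, the start interval was chr8:102502929-102508536 in library 1 (5608 bp) and chr8:102503159-102508435 in library 2 (5277 bp). It was the shortest of the 4, reached 3.87 and 3.77 kb into the gene, and covered only its first part. H3K4me1 began 1746 and 1858 bp upstream and 3274 and 3170 bp downstream, so both gaps were of the same order.

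Within 2 kb of the start on either side, H3K27ac covered 100% in both libraries at FOXA1, and H3K4me1 covered 0%. At HOXB13 the H3K27ac values were 100% and 97.3% and the H3K4me1 values 23.5% and 22.9%. At GRHL2 they were 93.5% and 90.9% against 6.37% and 3.57%, and at GATA2 81.1% and 78.5% against 19.8% and 25.7%. The marks were far apart here in every library of every gene.

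**Figure D3:**
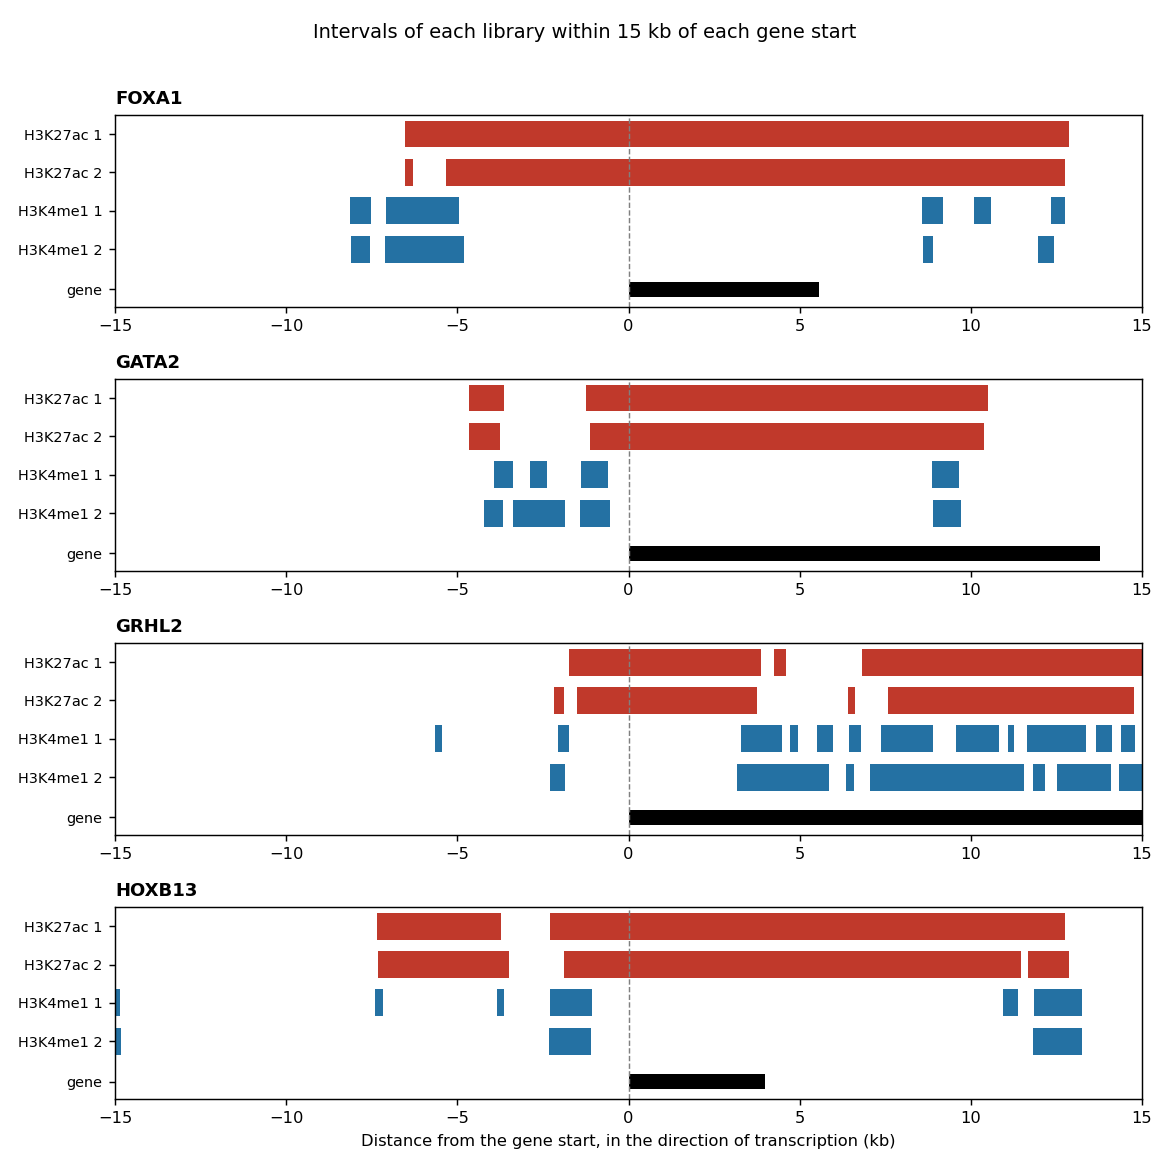
H3K27ac (red) and H3K4me1 (blue) around each gene start, by distance from the start in kb, 1 row per library. The start interval is longest at FOXA1 (19387 bp in library 1) and shortest at GRHL2 (5608 bp), and H3K4me1 lies mostly towards its ends.

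Regions called in both libraries of a mark were merged and are called replicated below. Of 47128 replicated H3K27ac regions on the autosomes and X, the FOXA1 start region (19391 bp) was 10th in width, the HOXB13 start region (15159 bp) 22nd and the GATA2 start region (11747 bp) 58th. The 101 regions of at least 10 kb, a length chosen after the values were seen, had a median of 60.8% of their length under replicated H3K4me1. At FOXA1 that share was 16.1%, at GATA2 13.1% and at HOXB13 15.02%. Shares that low or lower were found in 11.9%, 8.91% and 10.9% of the 101 regions, so these genes were in the lower part of the range but not alone there.

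Within these wide regions H3K4me1 was denser at the rims (2 kb at each end), and at GATA2 and HOXB13 it was found only there. The rim length was not fixed beforehand and no other was tried, so the 0% values below hold for it only. In the outer 2 kb at each end of the FOXA1 region, H3K4me1 covered 49.2% and 55.3% in libraries 1 and 2, and in the remaining inner part 7.06% and 2.08%. At GATA2 the rims had 35.9% and 37.7% and the inner part 0% in both libraries. At HOXB13 the rims had 67.5% and 56.4% and the inner part 0% in both. The medians of the 101 regions were 47.3% and 65.3% at the rims and 46.4% and 59.3% inside, so the typical wide region had H3K4me1 inside as well.

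Away from the start, H3K27ac and H3K4me1 shared more ground. In GRHL2, 77.9% to 93.6% of the length of the other H3K27ac intervals lay under H3K4me1 over the 4 pairs of libraries, against 9.36% to 12.46% of the start interval. In GATA2 the shares were 59.8% to 73.4% against 11.5% to 12.8%. In HOXB13 they were 57.7% to 67.4% against 6.06% to 17.2%. The ranges did not overlap in these 3 genes.

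FOXA1 was less clear. With H3K4me1 library 2, 45.2% and 49.4% of the other H3K27ac intervals were under H3K4me1, against 13.0% and 7.31% of the start interval. With H3K4me1 library 1 the values were 14.3% and 18.3% against 15.7% and 10.2%, and for H3K27ac library 1 the start interval thus had the larger share. Over the genome, 41.8% to 52.9% of H3K27ac length lay under H3K4me1 in the same pairs.

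**Figure D4:**
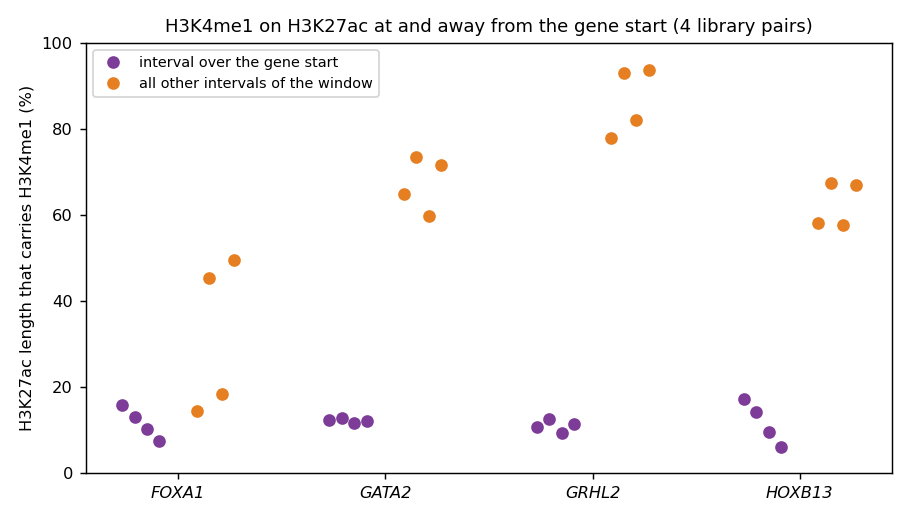
Percent of H3K27ac length under H3K4me1 for the interval over the gene start (purple) and for all other H3K27ac intervals of the window (orange), 1 point per pair of libraries. The groups are apart at GATA2, GRHL2 and HOXB13, and at FOXA1 they overlap through H3K4me1 library 1.

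The start region also took a different part of each window's acetylation. In replicated regions it held 52.5% of the H3K27ac length in the FOXA1 window, 42.1% at GATA2, 32.2% at HOXB13 and 11.4% at GRHL2. Most acetylation thus lay away from the start at GATA2 and HOXB13 as well as at GRHL2. GRHL2 had the largest share of H3K27ac under H3K4me1, 85.2% against 22.9% at FOXA1, 47.6% at GATA2 and 50.3% at HOXB13. A link between these shares was not tested.

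The sides of the genes were unequal. At FOXA1, H3K27ac covered 7.30% ± 0.565 (SD, n = 2) of the 100 kb on the 5′ side, 100% of the gene in both libraries, and 21.9% ± 2.00 (SD, n = 2) of the 3′ side, which faces MIPOL1 in the RefSeq order. H3K4me1 covered 7.23% ± 2.96 (SD, n = 2) of the 5′ side, 0% of the gene and 5.60% ± 3.08 (SD, n = 2) of the 3′ side. The 3′ acetylation was in 2 replicated regions besides the start region. The first, chr14:38031768-38038367, was 6600 bp long, 25.96 to 32.56 kb past the start, and 6.30% of it lay under replicated H3K4me1. The second, chr14:38012827-38022233, was 9407 bp long, 42.1 to 51.5 kb past the start, and 43.1% lay under H3K4me1.

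The widest H3K4me1 interval near FOXA1 measured 2150 and 2327 bp in libraries 1 and 2 and lay across the upstream end of the acetylated start region. The longest replicated H3K4me1 region without H3K27ac was chr14:38091603-38093709 (2107 bp), 27.3 to 29.4 kb upstream and 16.1 kb from the nearest replicated H3K27ac. One of the 6 replicated H3K27ac regions, chr14:38127522-38127890 (369 bp), had no replicated H3K4me1, although an H3K4me1 interval of library 2 covered all of it. The acetylated regions on the 5′ side were short, at 369, 436 and 733 bp, and the long ones lay on the 3′ side.

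At HOXB13, acetylation leaned to the 5′ side, which faces TTLL6 and CALCOCO2. H3K27ac covered 32.0% ± 0.623 (SD, n = 2) of the 5′ side and 9.63% ± 0.045 (SD, n = 2) of the 3′ side, where PRAC1 and PRAC2 lie in the RefSeq order. H3K4me1 covered 23.3% ± 3.26 (SD, n = 2) and 3.29% ± 0.104 (SD, n = 2). Both marks were therefore higher upstream in every library, and most of the 3′ acetylation was the start interval running past the gene. Whether that stretch also holds the starts of PRAC1 or PRAC2 was not assigned.

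Upstream of HOXB13, chr17:46822141-46829916 (7776 bp, 16.0 to 23.8 kb upstream) lay 51.6% under H3K4me1. The next region, chr17:46833419-46839132 (5714 bp, 27.3 to 33.0 kb upstream), lay 99.2% under H3K4me1 and held the widest H3K4me1 intervals of the window, 4361 and 5668 bp. Between these and the start region, chr17:46809598-46813472 (3875 bp) was the longest replicated H3K27ac region without replicated H3K4me1, although H3K4me1 library 1 had short intervals on it. The longest replicated H3K4me1 region without replicated H3K27ac was chr17:46702062-46702901 (840 bp), at the far 3′ edge of the window, and it held a 248 bp H3K27ac interval of library 2. A further group of acetylated regions lay 61.5 to 90.8 kb upstream.

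At GATA2 both marks were higher on the 3′ side, which faces DNAJB8 and EEFSEC. H3K27ac covered 12.4% ± 0.465 (SD, n = 2) of the 3′ side and 3.62% ± 0.133 (SD, n = 2) of the 5′ side. H3K4me1 covered 15.4% ± 2.78 (SD, n = 2) and 3.08% ± 0.963 (SD, n = 2). In the RefSeq order the 5′ side faces GATA2-AS1, then LINC01565 and RPN1. Whether the marked stretches upstream of the start hold the starts of these genes was not assigned. On the 3′ side the H3K4me1 mean was above the H3K27ac mean, the reverse of the whole window. The gene itself was covered 75.9% ± 0.601 (SD, n = 2) by H3K27ac and 5.79% ± 0.082 (SD, n = 2) by H3K4me1.

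The longest distal region of GATA2, chr3:128099008-128105853 (6846 bp, 106 to 113 kb past the start), lay 94.3% under H3K4me1. It held the widest H3K4me1 intervals of the window, 3866 bp in library 1 and 4405 bp in library 2. The longest replicated H3K27ac region without H3K4me1 was chr3:128144906-128145910 (1005 bp), only 275 bp from the nearest replicated H3K4me1 region. The longest H3K4me1 region without replicated H3K27ac was chr3:128120610-128122288 (1679 bp), and it held an H3K27ac interval of 178 bp in 1 library. Of the 12 replicated H3K27ac regions, 9 (75.0%) overlapped replicated H3K4me1, near the 73.5% over the genome, and of the 12 replicated H3K4me1 regions 10 (83.3%) overlapped replicated H3K27ac, against 47.1%.

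At GRHL2, H3K27ac covered 12.8% ± 0.104 (SD, n = 2) of the 5′ side, 15.2% ± 1.39 (SD, n = 2) of the gene and 6.05% ± 0.314 (SD, n = 2) of the 3′ side, which faces NCALD. H3K4me1 covered 17.9% ± 2.94 (SD, n = 2), 22.2% ± 4.11 (SD, n = 2) and 10.7% ± 2.51 (SD, n = 2). GRHL2 had the highest H3K4me1 share over the gene itself among the 4 genes, and the order of the marks was the same in all 3 parts. FOXA1 and HOXB13, whose spans lie wholly inside the start interval, had none.

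Inside GRHL2, the widest H3K27ac intervals measured 8600 bp in library 1 and 7200 bp in library 2. Their replicated region, chr8:102511493-102520092, lay 6.8 to 15.4 kb past the start and was 94.1% under H3K4me1. A second intragenic region, chr8:102589249-102597839 (8591 bp, 84.6 to 93.2 kb past the start), was 95.9% under H3K4me1 and held the widest H3K4me1 intervals, 4308 and 6514 bp. On the 5′ side, chr8:102418737-102423462 (4726 bp, over 81 kb upstream) was 94.4% under H3K4me1. All 18 replicated H3K27ac regions of the GRHL2 window overlapped replicated H3K4me1, against 73.5% over the genome. Of its 44 replicated H3K4me1 regions, 21 (47.7%) overlapped replicated H3K27ac, near the 47.1% over the genome. The longest without it was chr8:102555173-102557518 (2346 bp), 26.6 kb from the nearest replicated H3K27ac, and it held a 279 bp H3K27ac interval of library 2.

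**Figure D5:**
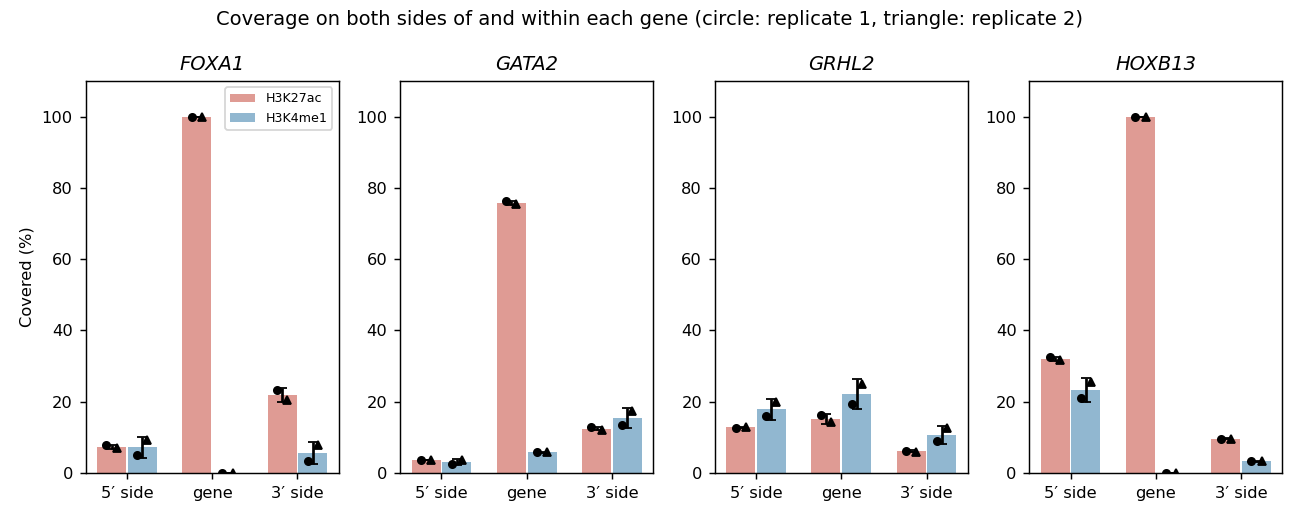
Percent of the 100 kb on the 5′ side, of the gene span and of the 100 kb on the 3′ side covered by H3K27ac (red) and H3K4me1 (blue), as bars (mean, with SD of 2 libraries) with 1 point per library. FOXA1 and HOXB13 spans are at 100% H3K27ac and 0% H3K4me1, and GRHL2 has more H3K4me1 than H3K27ac in all 3 parts.

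Of the 64 merged H3K27ac regions in the 4 windows, 49 (76.6%) were replicated, against 75.0% over the genome, so the share was near the background. Of 114 merged H3K4me1 regions, 84 (73.7%) were replicated, against 61.6%. By gene, FOXA1 had 6 of 6 and 13 of 25, GATA2 12 of 16 and 12 of 16, GRHL2 18 of 26 and 44 of 52, and HOXB13 13 of 16 and 15 of 21 for H3K27ac and H3K4me1. By these counts FOXA1 had the most repeatable acetylation, on only 6 regions, and the least repeatable methylation of the 4 genes. By bases covered in both libraries, acetylation was more repeatable at HOXB13 (90.1%) than at FOXA1 (88.2%), and FOXA1 methylation was still the least repeatable.

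Of the 49 replicated H3K27ac regions, 41 (83.7%, exact binomial 95% interval 70.3 to 92.7%) overlapped replicated H3K4me1, against 73.5% over the genome. Of the 84 replicated H3K4me1 regions, 52 (61.9%, exact binomial 95% interval 50.7 to 72.3%) overlapped replicated H3K27ac, against 47.1%. By gene this share ran from 47.7% at GRHL2 to 83.3% at GATA2. The replicated H3K4me1 regions of the windows were also wider than those of the genome (median 1428.5 against 944 bp). What this width does to the share was not tested. The intervals cover counting error only, and neighbouring regions of 1 window are not independent, so they are not tests against the genome shares. With only the widest intervals kept in equal numbers, the first share was 66.7%.

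By length, both marks shared 11.1% of the GRHL2 window and 11.6% of the HOXB13 window, but 6.22% at GATA2 and 4.12% at FOXA1. H3K27ac alone covered 13.8% at FOXA1, 11.5% at HOXB13, 6.84% at GATA2 and 1.92% at GRHL2. H3K4me1 alone covered 9.58% at GRHL2, 2.38% at FOXA1, 3.804% at GATA2 and 2.65% at HOXB13. HOXB13 and GRHL2 thus had similar shared percentages of windows of unequal length (23.7 kb and 41.8 kb). They differed in which mark extended beyond the shared part.

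Replicated H3K27ac regions were then joined into domains across the gap length usual in searches for very long enhancers. The domain over the HOXB13 start, chr17:46793245-46839132, joined 4 regions with 32.5 kb of H3K27ac (32.0 kb in each library) and was 22nd of 27436 domains by acetylated length. The FOXA1 start domain was the single 19.4 kb region and was 134th. The GRHL2 start domain, chr8:102502929-102525126, held 14.6 kb and was 302nd, and the GATA2 start domain, chr3:128201529-128216689, held 12.8 kb and was 436th. The median domain held 1.86 kb, and 122 domains held at least 20 kb, so only the HOXB13 start domain was in that group. A second domain stood out near HOXB13 (17.0 kb, 192nd) and near FOXA1 (16.0 kb, 234th). The second HOXB13 domain ran to 114 kb upstream of the start, so part of it lay outside the window. With a joining distance of 5 kb, the HOXB13 start domain held 19.0 kb.

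By bases covered, the libraries of H3K27ac agreed more closely than those of H3K4me1 in all 4 windows. By the share of merged regions that were replicated, FOXA1 and HOXB13 kept that order. GRHL2 had the opposite one (69.2% for H3K27ac, 84.6% for H3K4me1), and GATA2 had 75.0% for both. Bases covered in both libraries, as a share of bases covered in either, were 88.2% for H3K27ac and 34.8% for H3K4me1 at FOXA1. They were 83.0% and 69.7% at GATA2, 78.1% and 68.9% at GRHL2, and 90.1% and 72.6% at HOXB13, beside 76.9% and 51.8% over the genome. H3K4me1 library 2 covered 2.00 times the length of library 1 at FOXA1, 1.32 times at GATA2, 1.31 times at GRHL2 and 1.18 times at HOXB13, and over the genome it covered 3.804% against 2.458%. The FOXA1 values for H3K4me1 thus rest on the least repeatable calls of the set.

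Of the H3K27ac intervals, 49 of 52 (94.2%) in library 1 and 66 of 78 (84.6%) in library 2 overlapped an interval of the other library, beside 87.9% and 86.0% over the genome. For H3K4me1 they were 112 of 121 (92.6%) and 87 of 108 (80.6%), beside 88.3% and 68.7%. The intervals seen in only 1 library were short. Their median width was 317 and 284 bp in the H3K27ac libraries, and in the H3K4me1 libraries it was 280 and 327 bp. The longest of them measured 1231 bp, in H3K4me1 library 2. None of the regions over a gene start was among them.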

How the data were processed

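H3K27ac (2 libraries) and H3K4me1 (2 libraries) were profiled in Vcap cells. The deposited lists hold 4 columns (chromosome, start, end and a name), 1 list per library, with no score, p-value or count. Per the submitters' processing notes, bcl2fastq 2.17, Trimmomatic 0.33, Bowtie 1.1.2 and MACS2 2.1.0 were used with hg19 (GRCh37), and the sources used here do not give the calling threshold or the use of the input. The depth per library is therefore unknown. Per the file contents, other units are absent, and the values deposited by the authors are interval positions.

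Windows were the gene spans with 100 kb on either side. Overlap was at least 1 bp, and background windows covered the autosomes and X. Python 3.11.15, NumPy 2.4.6 and SciPy 1.17.1 were used, with a script tested on simulated data. The coverage of the marks was compared with exact permutation tests over libraries with Benjamini-Hochberg adjustment. The text names the interval at each start, the widest interval and region of each mark, and the longest replicated region without the other mark; other distal regions were picked after their values were seen. The strands of GRHL2 and HOXB13 are from general knowledge, since the RefSeq promoter table held only the other genes. GRCh38 spans differ from those used by 129 bp at FOXA1, 14 bp at GATA2, 11477 bp at GRHL2 and 3 bp at HOXB13, so RefSeq starts may lie off the 5′ ends used. Members and lists were chosen with earlier results of these data known. Alternatives were other flanks, common widths, equal numbers of intervals, other overlaps, a replicate block and leaving out each library.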

Additional observations from a re-analysis of the deposited data

Results flagged for a closer look

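The difference in coverage between the marks had opposite signs in the genes. H3K4me1 minus H3K27ac was 5.89 percentage points at GRHL2 and positive in every pair of libraries. It was -10.7 at FOXA1, -3.37 at GATA2 and -9.34 at HOXB13, and negative in every pair. The difference between genes was not tested, and all genes were measured in the same 4 libraries.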

How the results depend on the processing

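Of 184 alternative values for 30 results, 160 kept their direction. Where untested, these kept their count or stayed within the spread of the libraries or the counting interval. Of the 184, 18 moved, 3 reversed and 3 were weaker, meaning a difference of exactly 0, and the cause was not tested. The 160 include the fits with the replicate number as a block, which cannot change a difference. They also include the coverage of a mark with 1 of its libraries left out, which cannot leave the spread of the libraries. All 40 alternatives for the coverage difference kept its sign but not its size. Those that left out 1 library could not change the sign, since the libraries of the marks did not overlap at any gene. Only the other flanks, common widths and equal numbers of intervals could have changed it. With a 50 kb flank it was -21.6 at FOXA1, -8.32 at GATA2 and -18.7 at HOXB13, with 200 kb it was -4.05 at HOXB13, and leaving out 1 library gave -4.61 to -2.13 at GATA2 and 3.502 to 8.27 at GRHL2. The interval number difference at HOXB13 was 15 with 200 kb. At GATA2 it was 2.5 with 50 kb, 3 with 200 kb and 3.5 with common widths. The counts of libraries covering each start did not change in the 24 run, and these settings could hardly change them. H3K27ac was already at 2 of 2 libraries, and keeping only the widest intervals cannot add H3K4me1. The H3K4me1 interval nearest to a start, 543 bp upstream at GATA2, lay beyond the 500 bp allowed. With equal numbers of the widest intervals (54763 per list), the interval number difference was -1.5 at FOXA1, 0 at GATA2 and HOXB13 and 13.5 at GRHL2, H3K4me1 coverage at FOXA1 was 3.78%, and 66.7% of H3K27ac regions had H3K4me1. Leaving out 1 library gave differences in number from 7.5 to 15.5 at FOXA1, from -1 to 3 at GATA2 (0 without H3K27ac library 1, -1 without H3K4me1 library 2) and from -1 to 10 at HOXB13 (-1 without H3K4me1 library 1). Coverage moved with the flank. With 50 kb, H3K27ac covered 32.0% at FOXA1, 13.9% at GATA2 and 31.1% at HOXB13, and H3K4me1 10.5% and 5.58% at FOXA1 and GATA2. With 200 kb, H3K27ac covered 13.1% at FOXA1, 14.3% at GATA2, 8.99% at GRHL2 and 13.9% at HOXB13, and H3K4me1 11.7%, 13.7% and 9.83% at GATA2, GRHL2 and HOXB13. The HOXB13 start domain held 19.0 kb with a joining distance of 5 kb.

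With the replicate number as a block, the coverage differences were -10.7, -3.37, 5.89 and -9.34 percentage points for FOXA1, GATA2, GRHL2 and HOXB13. They equal those without it by construction, since each number occurs once per mark, so the block could not change them. The smallest possible p was 0.5. Libraries with the same number did not deviate together (r = -0.156 across 22927 windows), so the numbers were not taken as pairs. With crossed numbers or any other setting 0 tests passed 0.05, which so few libraries do not allow. Peak lists without heights show where a mark was called and not how much of it there was, and a gap can be signal below the caller's threshold.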
